A study of Mus musculus with 12 samples.

Results

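ATP-binding cassette (ABC) transporters that export drugs were examined in rhabdomyosarcoma tumors of mice given vincristine, the FOXM1 inhibitor RCM1 or both. The 9 pump genes were taken by name, as pumps known or suspected to export vincristine and other drugs, from the 38894 genes measured, and all 9 passed the filter on low counts. RNA-seq was performed on 12 tumors grown from Rd76-9 cells, a single murine embryonal rhabdomyosarcoma line, placed in the flanks of adult wild-type C57/Bl6J mice. Every tumor was taken on day 16. The vehicle group (m1, m2 and m3) received saline and empty nanoparticles, the VCR group (m4, m5 and m6) received vincristine at 0.25 mg/kg, the RCM1-NPFA group (m7, m8 and m9) received 8 µg of RCM1 in nanoparticles carrying folic acid, and the VCR + RCM1-NPFA group (m10, m11 and m12) received both. These are doses per injection, and the paper reports repeated treatment, with vincristine weekly and nanoparticles every other day. One label of the vehicle-treated tumors also names the RCM1 nanoparticle, so these 3 were grouped by their titles and the study's methods.

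Drug efflux pumps are membrane proteins that use ATP to move compounds out of the cell. P-glycoprotein, which mice encode in the paired genes *Abcb1a* and *Abcb1b*, and MRP1, the product of *Abcc1*, carry vincristine, a vinca alkaloid that blocks the assembly of microtubules, and both are known for multidrug resistance in cancer cells. Other members of the family carry organic anions, nucleotides, bile lipids or chemotherapeutic agents of other classes.

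The libraries held between 29342195 and 32108055 estimated counts. The tumors were not alike in the RNA of marker genes of several cell types. Whether the muscle fibre RNA came from the tumor cells or from other tissue was not tested. TPM is a level corrected for transcript length and library depth. In TPM, the sum of 14 adult muscle fibre markers was 100.6 to 272.9 in the vehicle group and 2016 to 12550 in the VCR group. It was 268.1 to 21710 in the RCM1-NPFA group and 597.5 to 5368 in the VCR + RCM1-NPFA group. The highest sums were in m9 and m5, and all 14 markers had reads in some tumors. The sum of 8 erythroid markers ranged from 24.1 to 1416, that of 10 endothelial markers from 100.3 to 192.2, and that of 10 macrophage markers from 3164 to 4568. The sum of 10 rhabdomyosarcoma markers was 166.9 to 509.0 and was highest in m9 and m5. Within it, *Des* ran from 4.45 to 317.2 TPM. The other markers with the highest means ranged less, *Cdh15* from 78.1 to 115.6 TPM, *Myf5* from 38.8 to 59.9 and *Ncam1* from 23.2 to 42.3. All 10 markers had reads in some tumors, but *Pax7*, at a mean of 0.0225 TPM, did not pass the filter on low counts. Transcripts of the Y-linked gene *Kdm5d* were found in 7 tumors, at 68 to 133 estimated counts, and were at 0 in the other 5, with 1 such positive tumor in the vehicle group and 2 in each treated group, a difference that the labels do not give. In bulk tumor RNA, fewer cells of a type cannot be told apart from less RNA per cell.

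On GRCm38, the mouse genome build of the files, the paired P-glycoprotein genes lay in a cluster. *Abcb1a* (chr5:8567091-8748575), *Abcb1b* (chr5:8798147-8866314) and *Abcb4* (chr5:8893614-8959226) were neighbours on chromosome 5. *Abcc1* (chr16:14361453-14474878) and *Abcc5* (chr16:20331303-20426428) were on chromosome 16. *Abcc3* (chr11:94343295-94393017), *Abcc4* (chr14:118482692-118707856), *Abcc10* (chr17:46303220-46328031) and *Abcg2* (chr6:58584491-58692451) lay on chromosomes of their own.

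The P-glycoprotein genes *Abcb1a* and *Abcb1b* are shown by the 100 bases just before their annotated starts, since these neighbours differed widely in level in every tumor. The bases are from RefSeq on GRCm38.p6, plus strand, 5′ to 3′, and capitals mark any GC box, CCAAT box or E-box found on either strand.
Abcb1a, chr5:8566991-8567090: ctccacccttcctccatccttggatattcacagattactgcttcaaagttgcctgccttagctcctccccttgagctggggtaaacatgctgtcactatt
Abcb1b, chr5:8798047-8798146: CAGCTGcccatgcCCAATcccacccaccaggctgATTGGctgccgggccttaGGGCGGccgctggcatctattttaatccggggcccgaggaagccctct
The *Abcb1b* window held all 3 motifs and was 65% G or C, while the *Abcb1a* window held none of them and was 49% G or C. The GC box was searched as GGGCGG and was held by 24.7% of 32851 such windows. The CCAAT box was searched by the letters of its name and was held by 18.9%. The E-box was searched as CANNTG and was held by 34.4%. The motifs in the *Abcb1b* window did not overlap each other. Entries were found for 7 of the 9 pumps, and none for *Abcc1* and *Abcc3*.

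MRP1 was the leading pump transcript of these tumors. By mean TPM, which corrects for transcript length, *Abcc1* stood at 42.3 ± 6.004 (SD, n = 12), followed by *Abcc5* at 23.7 ± 1.91, *Abcb1b* at 17.9 ± 3.03, *Abcc3* at 10.6 ± 1.73, *Abcg2* at 10.3 ± 1.81, *Abcc10* at 5.71 ± 0.802, *Abcc4* at 4.76 ± 0.889, *Abcb4* at 1.38 ± 1.64 and *Abcb1a* at 1.04 ± 0.229. *Abcc1* was above *Abcc5* in 12 of 12 tumors and their ranges did not overlap. *Abcc5* was above *Abcb1b* in 11 tumors, and *Abcb1b* above *Abcc3* in 12. *Abcc3* and *Abcg2* could not be ordered, since *Abcc3* was the higher in 6 tumors and the lower in 6. *Abcg2* was above *Abcc10* in every tumor, *Abcc10* above *Abcc4* in 8, and *Abcb4* above *Abcb1a* in 5, so that neither of these last pairs was separated beyond its spread. The plot of levels by gene and group shows this order, with *Abcb4* as the gene whose tumors were furthest apart.

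**Figure D1:**
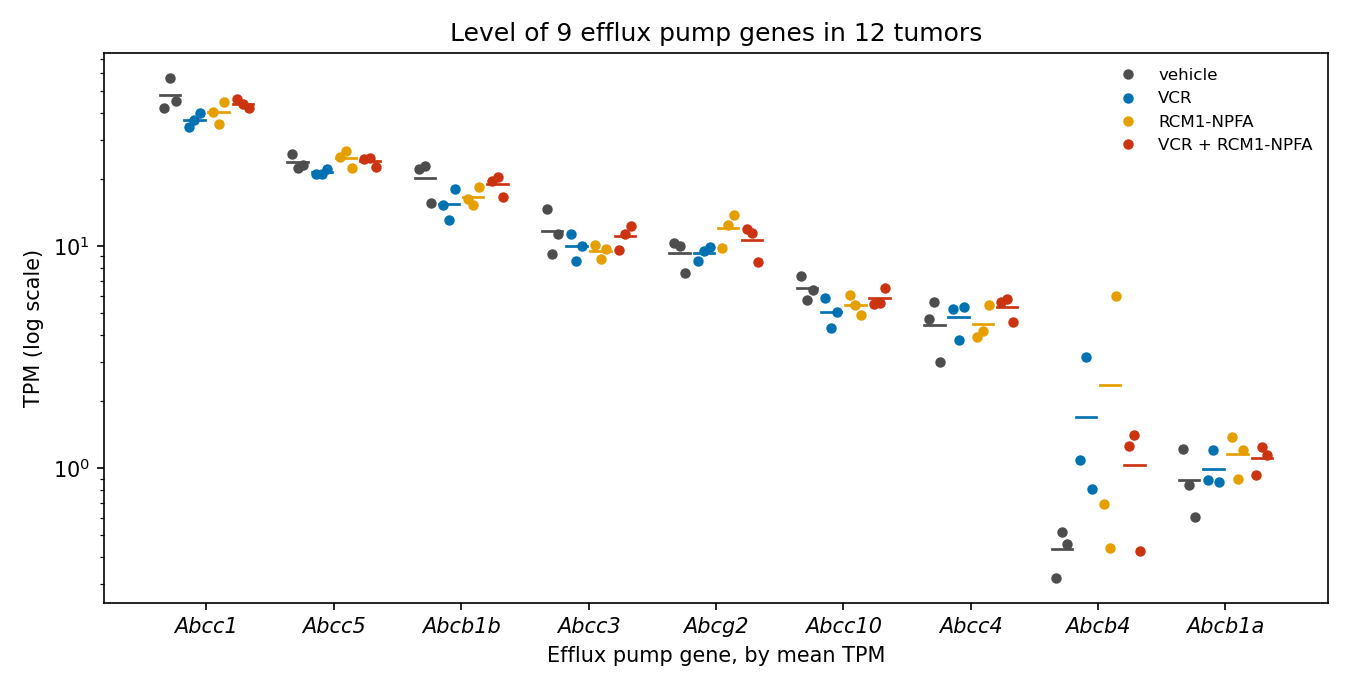
Levels of the 9 efflux pump genes in 12 tumors, as TPM on a log scale, in order of mean TPM. Each point is a tumor, colored by treatment, and each short line is the mean of 3 tumors. Abcc1 lies between 34.5 and 57.3 TPM in all tumors, whereas Abcb4 runs from 0.322 to 5.96.

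The summed level of the 9 pumps varied little between tumors. It was 129.0, 134.8 and 113.3 TPM in the vehicle group, 103.9, 102.2 and 112.1 in the VCR group, 113.7, 110.2 and 126.9 in the RCM1-NPFA group, and 125.3, 126.3 and 114.8 in the VCR + RCM1-NPFA group. All 3 VCR-treated tumors were below all 3 vehicle-treated tumors, although m6 and m3 were close to each other. Of all single genes tested, 21.8% also had VCR and vehicle groups that did not overlap in TPM, in either direction. *Abcc1* made up 32.4% to 42.5% of this sum, *Abcc5* 16.7% to 24.5% and *Abcb1b* 12.9% to 17.3%.

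**Figure D2:**
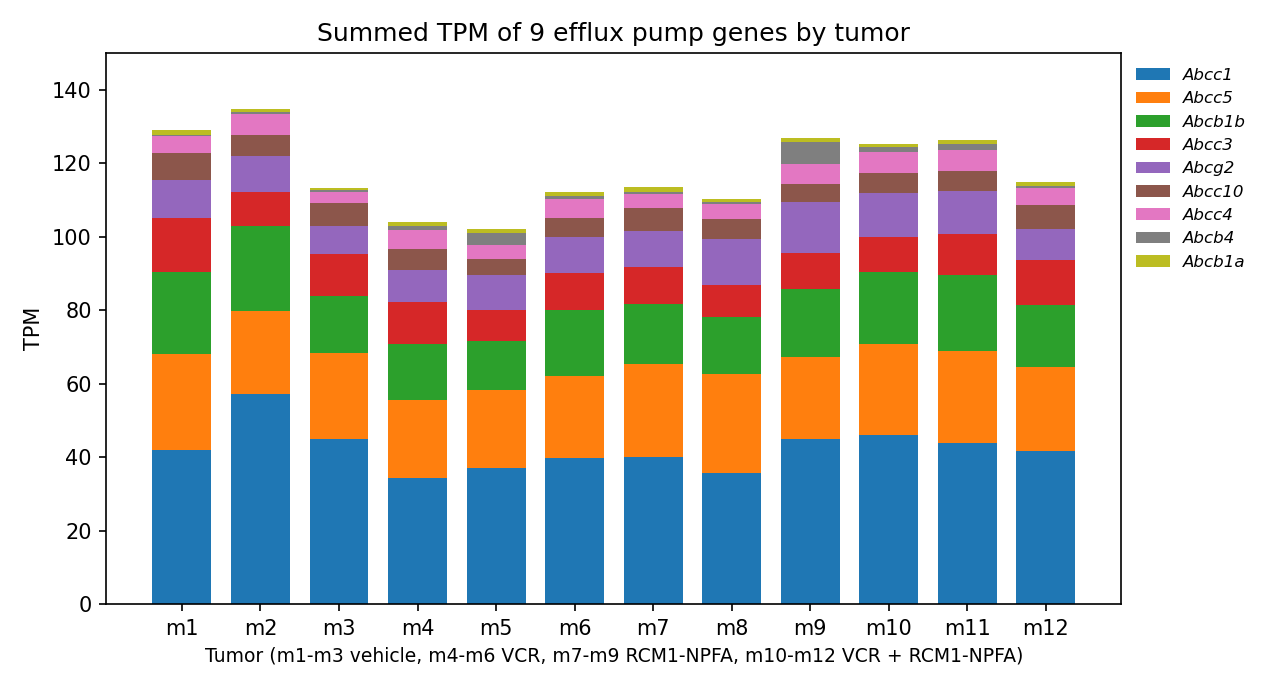
Summed TPM of the 9 efflux pump genes in each tumor, with one bar per tumor and one color per gene. The bars run from 102.2 TPM in m5 to 134.8 TPM in m2, and Abcc1 is the largest part of every bar.

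No pump gene passed the test in any of the 7 comparisons. After VCR, 0 of 9 pumps had an adjusted p under 0.1 by edgeR's quasi-likelihood test, against 5.55% of all 17599 genes tested. The counts were also 0 of 9 for RCM1-NPFA against vehicle, VCR + RCM1-NPFA against vehicle, VCR + RCM1-NPFA against VCR, VCR + RCM1-NPFA against RCM1-NPFA, the effect of VCR over both backgrounds (6 tumors against 6) and the interaction of the agents, where 0% of all genes passed. An unadjusted p under 0.05 was reached by 3 pumps after VCR (*Abcb1b*, *Abcb4* and *Abcc1*), against 22.1% of all genes, by 2 after RCM1-NPFA (*Abcb4* and *Abcg2*), against 9.78%, and by 3 in the interaction (*Abcb1b*, *Abcb4* and *Abcc1*), against 13.8%. It was reached by 0 pumps in the combination against vehicle (7.3% of all genes), against VCR (5.26%) and against RCM1-NPFA (2.07%), and by 0 for VCR over both backgrounds (10.5%). limma-voom also called 0 pumps in every comparison, against 3.86% of all genes after VCR and 0% in the other 6. DESeq2 with all 12 tumors called 2 pumps after VCR, *Abcb1b* and *Abcc1*, both lower, against 14.3% of the genes it gave an adjusted p, and 0 pumps in the other comparisons. Its share of all genes was 1.52% for RCM1-NPFA against vehicle, 0.362% for the combination against vehicle, 0% for the combination against either single agent, 1.17% for VCR over both backgrounds and 2.85% for the interaction. After VCR, 7 of 14 muscle fibre markers, 3 of 10 endothelial markers and 3 of 9 tested rhabdomyosarcoma markers were called higher by edgeR. Of those 9 rhabdomyosarcoma markers, 7 had positive and 2 negative log2 fold changes. The part of these markers in the values of the pumps was not tested.

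The intervals show how large a change these tumors leave possible. For the 8 pumps other than *Abcb4*, the 95% intervals of the fold change against vehicle lay between 0.669 and 1.75 after VCR, between 0.641 and 1.998 after RCM1-NPFA, and between 0.729 and 1.86 after the combination, with *Abcb1a* as the upper end each time. The median log2 fold change of the 9 pumps was -0.13 after VCR, 0.04 after RCM1-NPFA and -0.03 after the combination, while the median over all genes was 0.00 in each. The 3 comparisons share the vehicle-treated tumors. The plot of fold changes shows each pump's interval.

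**Figure D3:**
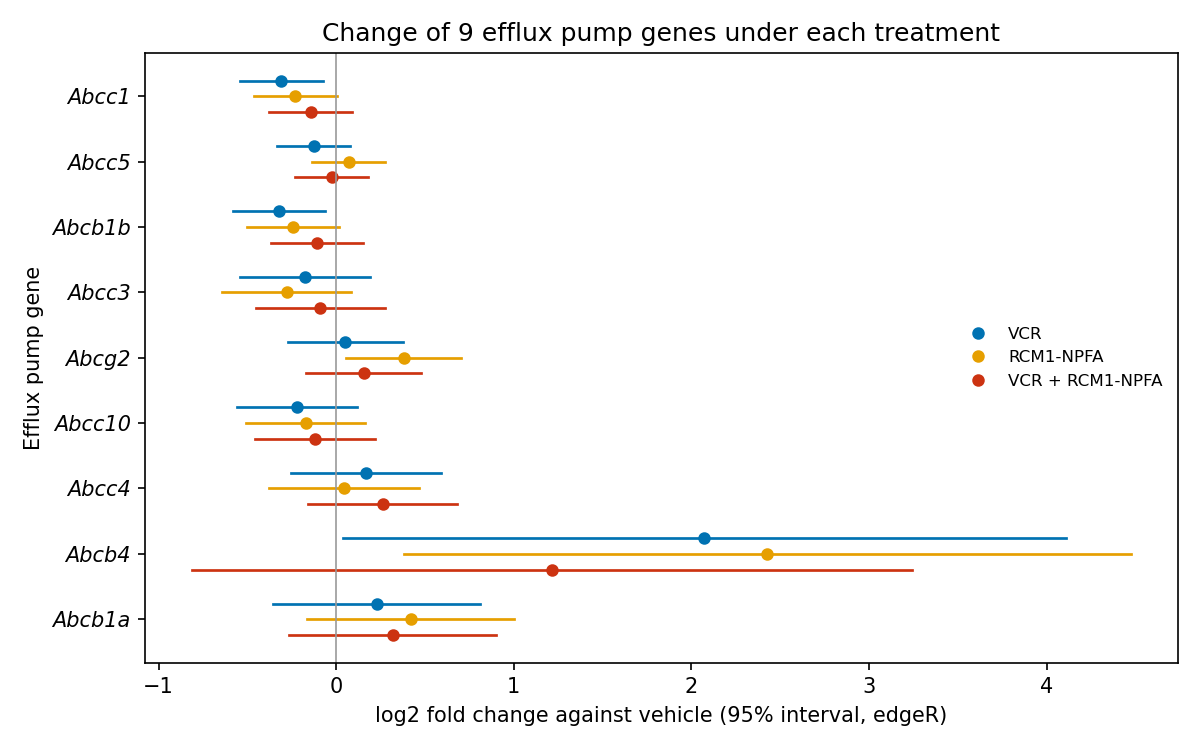
Change of each efflux pump gene against the vehicle-treated tumors, as the log2 fold change (point) and its 95% interval (line) from edgeR, with 3 tumors per group. The intervals of Abcb4 are the widest, from 0.04 to 4.11 after VCR, and those of Abcc5 are the narrowest.

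*Abcc1*, which encodes MRP1, an exporter of vincristine and of glutathione conjugates, was 41.9, 57.3 and 44.9 TPM in the vehicle group and 34.5, 37.2 and 39.7 TPM in the VCR group. It was 40.1, 35.7 and 44.8 TPM after RCM1-NPFA and 46.0, 43.9 and 41.8 TPM after VCR + RCM1-NPFA. In TPM, every VCR-treated tumor was below every vehicle-treated tumor, and the same held for counts scaled to library size. Of all genes tested, 21.8% had groups that did not overlap in TPM, in either direction, and 24.1% in counts scaled to library size. In CPM scaled by TMM, m5, at 146.8, was just above m1, at 145.7. The log2 fold change after VCR was -0.31 ± 0.11 (SE, adjusted p = 0.134), after RCM1-NPFA -0.23 (adjusted p = 0.512) and after the combination -0.14 (adjusted p = 0.773). The call depended on the setting. The adjusted p after VCR was 0.0558 by DESeq2 with all tumors, where 14.3% of genes were called. By edgeR it was 0.0995 among the genes with a mean of 50 counts or more, 9.37% of which were called. It was 0.0882 by edgeR without m1, where 281 of 17961 genes were called. Without m2, the highest vehicle-treated tumor, the log2 fold change shrank to -0.21.

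The P-glycoprotein genes were dominated by *Abcb1b*. It held 91.6% to 96.5% of the summed TPM of *Abcb1a* and *Abcb1b* (94.4% ± 1.48, SD, n = 12), and its mean TPM was 17.2 times that of *Abcb1a*. *Abcb1b* was 22.3, 23.0 and 15.6 TPM in the vehicle group, 15.3, 13.2 and 18.0 after VCR, 16.3, 15.4 and 18.5 after RCM1-NPFA, and 19.6, 20.6 and 16.8 after the combination. The vehicle group held the 2 highest tumors, m1 and m2, but its other tumor, m3, lay among the treated ones, so that the groups overlapped. The log2 fold change of *Abcb1b* was -0.32 ± 0.12 after VCR (adjusted p = 0.151), -0.24 after RCM1-NPFA (adjusted p = 0.535) and -0.11 after the combination (adjusted p = 0.851). After VCR the adjusted p was 0.0814 by DESeq2 with all tumors, where 14.3% of genes were called. By edgeR it was 0.0672 without m3, where 1287 of 18043 genes were called, and 0.0897 without m6, where 1998 of 18064 were.

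*Abcb1a*, the other P-glycoprotein gene, was low throughout, at 60 to 129 estimated counts. It was 1.23, 0.837 and 0.607 TPM in the vehicle group, 0.886, 1.21 and 0.870 after VCR, 1.38, 0.893 and 1.22 after RCM1-NPFA, and 0.935, 1.24 and 1.15 after the combination. Each treated group overlapped the vehicle group, and the log2 fold changes were 0.23, 0.42 and 0.32 (adjusted p = 0.655, 0.649 and 0.795). The split of reads between these neighbours was uncertain in part, since 21.4% of the 31-base words of *Abcb1a* transcripts also occurred in *Abcb1b* and 24.7% of those of *Abcb1b* in *Abcb1a*, while the *Abcc* genes and *Abcg2* shared none with another pump. A single annotated transcript gave at least 96.9% of the *Abcb1b* TPM. For *Abcb1a* the share of the leading one of 2 transcripts ran from 0% to 99.99%, and only the sum per gene was used.

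In the interaction of the agents, which asks whether the combination differed from the sum of the single-agent log2 changes, *Abcb1b* and *Abcc1* had positive values and *Abcb4* a negative one. Mean TPM of *Abcb1b* was 20.3 ± 4.09 (SD, n = 3) with vehicle, 15.5 ± 2.43 with VCR, 16.8 ± 1.60 with RCM1-NPFA and 19.0 ± 1.998 with both. For *Abcc1* the means were 48.0 ± 8.12, 37.1 ± 2.61, 40.2 ± 4.56 and 43.9 ± 2.10 TPM in the same order. For these genes both single agents had lower means than vehicle, and the combination lay between. The interaction was 0.46 for *Abcb1b* (95% interval 0.09 to 0.82, adjusted p = 0.297) and 0.40 for *Abcc1* (0.07 to 0.73, adjusted p = 0.305) on the log2 scale. For *Abcb4*, whose values by tumor follow, it was -3.29 (-6.08 to -0.49, adjusted p = 0.312), and -1.16 without m9. None of these 3 genes passed the test by edgeR, limma-voom or DESeq2.

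*Abcb4* encodes the transporter that places phosphatidylcholine in bile and is the last gene of the chromosome 5 cluster. It was 0.322, 0.518 and 0.455 TPM in the vehicle group, 1.09, 3.19 and 0.807 after VCR, 0.693, 0.436 and 5.96 after RCM1-NPFA, and 1.26, 1.41 and 0.422 after the combination. All VCR-treated tumors were above all vehicle-treated tumors, and m9 and m5 stood far above the rest. This was the 1 pump of 9 whose VCR and vehicle groups did not overlap in TMM-scaled CPM, while 24.4% of all genes tested had groups that did not overlap in that comparison. The number depended on the scale: in counts scaled to library size *Abcc1*, lower after VCR, was also separated (2 of 9 pumps, against 24.1% of genes), and in TPM *Abcc1* and *Abcc5*, both lower, were (3 of 9, against 21.8%). For the other treatments 0 of 9 pumps were separated from vehicle in TMM-scaled CPM, against 11.4% of all genes after RCM1-NPFA and 12.6% after the combination. The fold change of *Abcb4* was 4.21 after VCR (95% interval 1.03 to 17.2, adjusted p = 0.218), 5.38 after RCM1-NPFA (1.31 to 22.2, adjusted p = 0.441) and 2.32 after the combination (0.570 to 9.45, adjusted p = 0.781). The smallest p that an exact permutation test of 3 against 3 tumors can give is 0.1, which *Abcb4* reached after VCR (two-sided, adjusted p = 0.655 over 36 tests).

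*Abcb4* was highest in the tumors richest in muscle fibre RNA. The 6 tumors with the highest summed muscle fibre markers (m4, m5, m6, m9, m10 and m11, at 2016 TPM or more) were also the 6 with the highest *Abcb4*, at 0.807 TPM or more, while the other 6 had at most 597.5 TPM of the markers and at most 0.693 TPM of *Abcb4*. The 3 tumors richest in the markers, m9, m5 and m11, were in the same order for *Abcb4*. Among the 6 tumors poorest in the markers the orders differed. There m12 ranked 7 of the 12 tumors for the markers and 11 for *Abcb4*, and m7 ranked 10 and 7. The 3 genes whose profile over the 12 tumors was most like that of *Abcb4* were *Tacc2* (r = 0.982), *Synm* (r = 0.978), which encodes the intermediate filament protein synemin of muscle, and *Mfn2* (r = 0.975), a mitochondrial fusion protein. Without m9 the log2 fold change after RCM1-NPFA went from 2.43 to 0.31, and without m5 the one after VCR went from 2.07 to 1.21 (adjusted p = 0.644). The part of muscle fibre RNA in the *Abcb4* values was not tested further. *Abcb4* after VCR had an adjusted p of 0.0749 by edgeR without m9, where 1401 of 17982 genes were called. By DESeq2 with only the vehicle and VCR groups it was 0.00147, where 7.82% of genes were called. On the same 6 tumors it was 0.123 by edgeR.

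**Figure D4:**
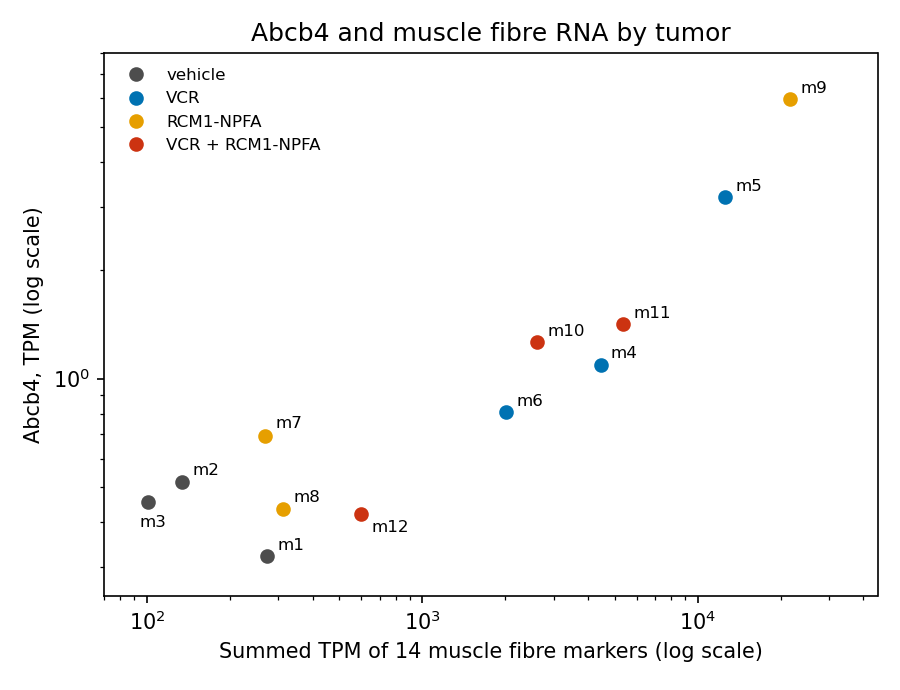
Abcb4 (TPM) against the summed TPM of 14 adult muscle fibre markers, both on log scales, with one labelled point per tumor colored by treatment. The highest tumor on both axes is m9 (5.96 TPM and 21710 TPM), followed by m5, and the 3 vehicle-treated tumors are at the lower left.

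*Abcg2*, which encodes the breast cancer resistance protein, a pump of mitoxantrone and topotecan, was 10.3, 10.02 and 7.59 TPM in the vehicle group and 9.83, 12.4 and 13.9 TPM after RCM1-NPFA. It was 8.58, 9.55 and 9.91 TPM after VCR and 12.01, 11.5 and 8.52 TPM after the combination. Of the RCM1-NPFA-treated tumors, m8 and m9 were above all vehicle-treated tumors and m7 was within their range. The 10 markers of endothelial cells, which are known to carry this pump, summed to 147.0, 100.3 and 107.9 TPM with vehicle. They summed to 148.8, 139.6 and 183.8 TPM after RCM1-NPFA, 153.6, 192.2 and 151.9 after VCR, and 152.5, 162 and 156.2 after the combination. All VCR-treated and all combination-treated tumors were thus above all vehicle-treated tumors in this sum. The part of endothelial cells in *Abcg2* was not tested. The log2 fold change after RCM1-NPFA was 0.38 (95% interval 0.05 to 0.70, adjusted p = 0.448), after VCR 0.05 (adjusted p = 0.872) and after the combination 0.15 (adjusted p = 0.820).

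The remaining MRP genes showed no change that passed the test. *Abcc5*, a carrier of cyclic nucleotides, was the steadiest pump, at 26.1, 22.5 and 23.3 TPM with vehicle, 21.1, 21.2 and 22.4 after VCR, 25.3, 27.0 and 22.5 after RCM1-NPFA, and 24.8, 24.96 and 22.8 after the combination. Its highest tumor was 1.28 times its lowest, and its interval after VCR ran from a fold change of 0.795 to 1.05. *Abcc4*, which carries cyclic nucleotides and prostaglandins, was 4.70, 5.59 and 3.002 TPM with vehicle, 5.23, 3.79 and 5.32 after VCR, 3.88, 4.14 and 5.42 after RCM1-NPFA, and 5.63, 5.80 and 4.57 after the combination. All its groups overlapped, and its adjusted p against vehicle was 0.646, 0.965 and 0.773 in the 3 treated groups.

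*Abcc3*, a carrier of glucuronides and other organic anions, was 14.7, 9.23 and 11.3 TPM with vehicle, 11.3, 8.60 and 10.02 after VCR, 10.1, 8.77 and 9.73 after RCM1-NPFA, and 9.60, 11.4 and 12.4 after the combination. One vehicle-treated tumor, m1, was the highest of the 12, and its log2 fold change after RCM1-NPFA, the farthest from 0 of the 3, was -0.28 (adjusted p = 0.626). *Abcc10*, whose product MRP7 can carry vinca alkaloids and taxanes, was 7.37, 5.71 and 6.32 TPM with vehicle, 5.86, 4.29 and 5.07 after VCR, 6.05, 5.42 and 4.93 after RCM1-NPFA, and 5.49, 5.56 and 6.47 after the combination. Here too m1 was the highest tumor, and the log2 fold change after VCR was -0.22 (95% interval -0.56 to 0.12, adjusted p = 0.426).

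Comparing the 6 tumors given VCR with the 6 not given it, the log2 differences of the 8 pumps other than *Abcb4* lay between -0.11 (*Abcc5*) and 0.19 (*Abcc4*), with 95% intervals of the fold change between 0.787 and 1.41. The lowest p of the 9 exact permutation tests of this contrast, for *Abcc5*, was 0.145 (two-sided, adjusted p = 0.655). Between the combination and VCR alone, 8 of 9 pumps had positive values and *Abcb4* was negative, while 8641 of all 17599 genes were positive. The 9 values rest on the same tumors, and the smallest adjusted p by edgeR was 0.855. Against RCM1-NPFA alone, 5 pumps were positive and 4 negative, while 8436 of all genes were positive.

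The pumps did not vary as a block across tumors. Over the 36 pairs, r of log2 CPM across the 12 tumors, given as a description, ran from -0.71 (*Abcb4* with *Abcc10*) to 0.84 (*Abcc3* with *Abcc10*), with a median of -0.01. The genes most like each pump were also different ones. They were *Gnptab* and *Plcb4* for *Abcb1b* (r = 0.951 and 0.949), *Abi3bp*, *Dapk1* and *Col7a1* for *Abcb1a* (0.922, 0.913 and 0.892), and *Ltbp1*, *Eprs* and *Nup214* for *Abcc1* (0.920, 0.916 and 0.914). For *Abcc3* they were *Rab43*, *Tbc1d9* and *Sesn3* (0.943, 0.927 and 0.902), for *Abcc4* *Rims2*, *Nfatc2ip* and *Arhgef37* (0.873, 0.868 and 0.868), and for *Abcc5* *Pcdhga6* and *Copa* (0.879 and 0.858). For *Abcc10* they were *Tyk2*, *Ephb6* and *Smim1* (0.911, 0.892 and 0.878), and for *Abcg2* *Mlh3*, *Ramac* and *T2* (0.909, 0.882 and 0.872).

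Genes that work around the pumps were taken from lists of other ABC genes, pump regulators, NRF2 targets, glutathione S-transferases, CYP3A enzymes with their partners, and uptake carriers. After VCR, 1 of 28 tested other ABC genes was called, 2 of 12 regulators, 0 of 10 NRF2 targets, 1 of 17 transferases and 1 of 8 carriers. On the CYP3A list 0 of 4 tested genes were called, namely *Cyp3a13*, *Cyp3a59* and the partners *Por* and *Cyb5a*. The share of all genes was 5.55%. None of these genes was called in the other 6 comparisons, in which no gene was.

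Among regulators, *Sp1*, a factor that binds GC boxes, fell by 0.39 on the log2 scale after VCR (adjusted p = 0.0766), from 31.2, 29.3 and 22.7 TPM with vehicle to 19.9, 17.6 and 23.1 TPM. *Foxo3*, a forkhead factor, fell by 0.36 (adjusted p = 0.0748), from 22.5, 22.8 and 23.3 TPM to 16.9, 16.8 and 17.5 TPM. *Abca5*, a lipid transporter, fell by 0.65 (adjusted p = 0.0728), from 1.67, 1.26 and 1.41 TPM to 0.906, 0.776 and 1.01 TPM. The glutathione S-transferase *Gstt1*, which conjugates electrophiles, fell by 0.84 (adjusted p = 0.0766), from 25.2, 32.9 and 30.0 TPM to 18.4, 12.7 and 15.0 TPM. The carrier *Slc22a4*, which imports ergothioneine, rose by 0.75 (adjusted p = 0.0906), from 1.04, 1.25 and 0.819 TPM to 2.25, 1.98 and 1.78 TPM. In TPM the vehicle and VCR groups did not overlap for these genes except *Sp1*, as for 21.8% of all genes tested. Each of these 5 genes kept its direction in all 22 alternatives, with log2 fold changes from -0.489 to -0.326 for *Sp1*, -0.409 to -0.293 for *Foxo3*, -0.777 to -0.558 for *Abca5*, -0.994 to -0.756 for *Gstt1* and 0.671 to 1.03 for *Slc22a4*. Whether they passed the threshold changed with the tumors in the fit. None of the 5 passed without m2, m4, m5 or m11 (a tumor of the combination group), without which 0, 0, 0 and 1 of all genes were called. Some also did not pass without m1, m3, m10 or m12 or with only the groups compared. *Abca5*, *Sp1*, *Gstt1* and *Slc22a4* did not pass without both m5 and m9, and *Slc22a4* did not pass without a filter. *Sp1*, *Gstt1* and *Slc22a4* were not called with a term for *Kdm5d*.

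None of the most abundant genes of these lists passed the test. The conjugating enzyme *Gstp1* had a mean of 546.4 TPM, *Gsto1* 270.7 and *Gstm1* 80.1, and the log2 fold changes of the 3 after VCR were 0.13, 0.12 and -0.06. Of the regulators, *Ybx1*, encoding a Y-box factor, had a mean of 665.2 TPM, *Trp53* 260.6 and *Nfkb1* 102.0, with 0.19, 0.10 and -0.24 after VCR (adjusted p = 0.170, 0.549 and 0.155). The leading NRF2 targets, *Hmox1*, *Txnrd1* and *G6pdx*, had means of 194.9, 95.7 and 67.4 TPM, and of the other ABC genes *Abcf1*, *Abcf2* and *Abce1*, which act in translation and carry no substrate across membranes, had 117.6, 110.1 and 105.7 TPM. Vincristine-oxidizing CYP3A enzymes were close to 0, with a mean of 0.270 TPM for *Cyp3a13*, while their partners *Por* and *Cyb5a* had 53.7 and 53.4 TPM. The leading uptake carriers were *Slco2b1* (11.3 TPM), *Slc22a5* (8.03 TPM) and *Slco3a1* (4.81 TPM), while the pregnane X receptor gene *Nr1i2*, the bile salt pump gene *Abcb11* and the MRP2 gene *Abcc2* had means of at most 0.0227 TPM.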

How the data were processed

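RNA-seq of 12 tumors, 3 per treatment, was used. The authors prepared poly-A libraries and ran kallisto on the GRCm38 transcriptome. The deposited values are an estimated count and a TPM per transcript, with its length. The paper calls the libraries non-stranded, so a gene and an antisense partner could share reads. Of 120299 transcripts, 120289 were matched to RefSeq genes and 10 were left out. Estimated counts were summed per gene and rounded for testing, and TPM were summed per gene.

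Genes were kept by filterByExpr of edgeR 4.0.16 (R 4.3.3) at a minimum count of 10, leaving 17599. CPM values are scaled by TMM. After TMM scaling, all 4 groups entered one quasi-likelihood model, and p-values were adjusted by Benjamini-Hochberg over all genes tested, with a threshold of 0.1. Intervals are 95% intervals of that model. Its p-values set the group differences against the spread between tumors of separate mice, which was estimated over all 4 groups together. Two-sided exact permutation tests used log2(CPM + 0.1) of single pumps, with 36 tests adjusted together. Likeness was Pearson's r of log2(CPM + 0.1) among tested genes with a mean of at least 1 CPM, and the 3 highest were named, except 2 genes that are not reported here. All pumps were named, and from each other list the called genes, up to 4 per comparison, and the 3 with the highest mean TPM. *Nr1i2*, *Abcb11* and *Abcc2* were named after their values were seen. The pumps, lists and alternatives were chosen with earlier results of these data known. Motifs were searched in the 100 bases before each RefSeq start. Python 3.11.15, limma 3.58.1 and DESeq2 1.42.0 were also used. The edgeR script was tested on simulated counts. No 2 tumors of a group agreed within counting noise.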

Additional observations from a re-analysis of the deposited data

How the results depend on the processing

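The number of pumps called after VCR, 0 in the report, became 1 with a filter at a mean of 50 counts, 2 by DESeq2 with all tumors and 1 by DESeq2 with only the groups compared, and 0 to 1 when a tumor was left out. It stayed at 0 with DESeq2's size factors, no filter, length offsets, limma-voom, edgeR on only the groups compared, a threshold of 0.05, without both m5 and m9, and with a term for *Kdm5d*, which was chosen after seeing the data. The other 6 comparisons stayed at 0 pumps in every alternative. Genes called after VCR, 976 in the report, were 653 without a filter (about 1.5 times fewer), 465 with only the groups compared (352 higher and 113 lower), 2214 by DESeq2, 376 with the term for *Kdm5d*, 253 without both m5 and m9, 9 at a threshold of 0.05, and 0 to 1998 when a tumor was left out.

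None of the sign changes below is of a value that passed the test. For *Abcc3* and VCR over both backgrounds the log2 difference, 0.01, became -0.00273 with DESeq2's size factors, -0.00329 without a filter, -0.000953 with a mean of 50 counts, -0.00114 by DESeq2 and -0.0226 with the term for *Kdm5d*. Without both m5 and m9, *Abcb1a* became -0.00186 after VCR and -0.0397 for VCR over both backgrounds, *Abcc4* -0.106 after RCM1-NPFA and -0.0203 for the combination against VCR, *Abcb4* 0.00738 against VCR and 0.906 against RCM1-NPFA, *Abcc10* -0.0222 against RCM1-NPFA, and *Abcc5* -0.0625 in the interaction.

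Leaving out each tumor, the log2 differences that changed sign ranged as follows. After VCR, *Abcc4* ranged from -0.0146 to 0.327 and *Abcg2* from -0.0303 to 0.124. After RCM1-NPFA, *Abcc4* ranged from -0.140 to 0.211 and *Abcc5* from -0.0197 to 0.149. After the combination, *Abcc3* ranged from -0.264 to 0.0657 and *Abcc5* from -0.119 to 0.0287. For the combination against VCR, *Abcb1a* ranged from -0.0176 to 0.313, *Abcb4* from -1.19 to 0.00527, *Abcc3* from -0.0302 to 0.216, *Abcc4* from -0.0209 to 0.168 and *Abcc10* from -0.0214 to 0.224. Against RCM1-NPFA, *Abcb1a* ranged from -0.243 to 0.0261, *Abcb4* from -1.70 to 0.903 and *Abcc10* from -0.0697 to 0.114. For VCR over both backgrounds, *Abcb1a* ranged from -0.0482 to 0.204, *Abcb4* from -0.00136 to 1.48 and *Abcc3* from -0.0859 to 0.0846. In the interaction, *Abcc4* ranged from -0.113 to 0.231 and *Abcc5* from -0.0480 to 0.127. The cause was not tested.

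With 3 tumors per group, the precision of the fold changes rests on the spread between tumors rather than on depth. Which pumps were separated between VCR and vehicle was also counted in TPM and in counts scaled to library size, a choice made after seeing the data. The pseudocount of 1 changed no direction. The share of *Abcb1b* in the P-glycoprotein pair was the same in CPM divided by transcript length. That scale differs from TPM by a factor per tumor, which cancels in a share, so it could not give another result. No paired analysis was possible because the mouse numbers differ between all groups.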
